A study of Homo sapiens with 4 samples.

Results

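The genes examined were the proteasome and immunoproteasome subunit genes, read in Flag-FLI1 ChIP-seq of HK1 cells, an established nasopharyngeal carcinoma line. Members were the GENCODE 44 protein-coding genes whose symbol is *PSMA*, *PSMB*, *PSMC*, *PSMD* or *PSME* followed by a number, and 43 of 20046 protein-coding genes met this rule. A gene was counted as having a promoter peak when a deposited peak overlapped the 3 kb either side of the start site (TSS) of any of its transcripts. The HK1 cells overexpressed Flag-tagged FLI1 in both groups. Cells of the control group received PBS and cells of the other group received IFN-γ, each for 24 h, and FLI1-bound DNA was pulled down through the Flag tag. The occupancy measured is therefore that of the overexpressed protein and not of the cells' own FLI1. Each condition had 1 ChIP library, so no effect of the treatment was tested and the spread between replicates is unknown. The 2 input libraries were not analysed here. Peak lists hold no expression values, so neither the cell type nor the overexpression could be checked from them.

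The control list held 30819 peaks and the IFN-γ list 39654. Median summit pileups, the number of fragments stacked at the highest point of a peak, were 16 and 22. The lowest background, 1.06 and 1.54 fragments, was taken as the relative depth, a ratio of 1.46. A gene without a peak is under the calling cutoff of that library and is not shown to be unbound. Intervals below are exact Clopper-Pearson 95% intervals and cover counting error only.

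FLI1 is a transcription factor of the ETS family, whose members bind a GGAA core, with CCGGAAGT and CAGGAAGT among the preferred longer sites. The proteasome degrades ubiquitin-tagged proteins. Its 20S core is a barrel of α rings, which gate entry, and β rings, of which the β1, β2 and β5 subunits carry the proteolytic sites. The 19S cap recognises and unfolds substrates with a ring of ATPases and a set of non-ATPase subunits. In response to IFN-γ, cells are known to replace *PSMB6* (β1), *PSMB7* (β2) and *PSMB5* (β5) with the immunoproteasome subunits *PSMB9* (β1i), *PSMB10* (β2i) and *PSMB8* (β5i), and to induce the PA28 activator encoded by *PSME1* and *PSME2*. These changes favour peptides that fit MHC class I.

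The ETS octamer, CCGGAAGT or CAGGAAGT on either strand, lay within 100 bp of a promoter summit of 13 of the 40 members that had a peak in at least 1 library (32.5%), against 23.0% of all protein-coding genes with a peak. No interval was calculated for this share by gene, and the difference was not tested. The sites of 8 of them are shown, each of 30 bases, read 5′ to 3′ on the strand that carries the octamer, with the octamer in capitals (GRCh38 coordinates). They were picked to include the catalytic subunits that had it and at least 1 gene each of the 20S core, the 19S cap and the activators. The catalytic genes *PSMB6*, *PSMB8* and *PSMB9* had no octamer near a promoter summit.
PSMB7 (β2), chr9:124415470-124415499, minus strand: tgccagcgacgCCGGAAGTgctcggctctt
PSMB5 (β5), chr14:23035158-23035187, plus strand: cctcaaaatcaCAGGAAGTgactgaaaacg
PSMB10 (β2i), chr16:67936842-67936871, minus strand: gaaagcgaaagCAGGAAGTacagacgtgaa
PSMB1 (β6), chr6:170553305-170553334, minus strand: ttcaggagaagCCGGAAGTggcgtaacgtc
PSMC1 (ATPase), chr14:90256551-90256580, minus strand: agctgccgctgCCGGAAGTtcctccaccac
PSMD12 (non-ATPase), chr17:67366568-67366597, plus strand: cgtcacccacaCCGGAAGTtgcccgcgcac
PSMD13 (non-ATPase), chr11:236953-236982, plus strand: gccgctcggcgCCGGAAGTgagtgagcatt
PSME2 (PA28β), chr14:24147492-24147521, minus strand: ttagccgagaaCAGGAAGTactaggagaga
The octamer of *PSMD12* lay across the start region, centred 5 bp upstream of the MANE TSS, and that of *PSMD13* 9 bp upstream. The octamer of *PSMB7* lay 42 bp upstream. That of *PSMB5* lay 272 bp upstream, downstream of and nearer to another *PSMB5* start. The octamer of *PSMB10* lay 6 bp upstream, and that of *PSME2* 896 bp upstream, nearer to another *PSME2* start.

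Of the 43 genes, 40 had a promoter peak in control cells (93.0%, 80.9% to 98.5%) and 36 had one after IFN-γ (83.7%, 69.3% to 93.2%). Over all protein-coding genes the shares were 61.9% and 59.7%. The promoters of 38 members were CpG-rich, and among the 13521 CpG-rich protein-coding genes the shares were 78.8% and 74.4%, a background chosen after the data were examined. The share over all genes lay under the members' interval in both libraries, and that of CpG-rich genes lay under it in the control library and inside it after IFN-γ. In both libraries 36 members had a peak, against 56.0% of all genes. The 4 genes with a peak in the control list only were *PSMA2*, *PSMA3*, *PSMD10* and *PSME1*, against 5.90% of all genes, and 0 members had one in the IFN-γ list only, against 3.70%. The control peaks of these 4 genes had pileups of 11, 17, 10 and 10 fragments, close to or under the library's median of 16. The remaining 3 genes, *PSMA4*, *PSMA8* and *PSMB11*, had a peak in neither list.

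**Figure D1:**
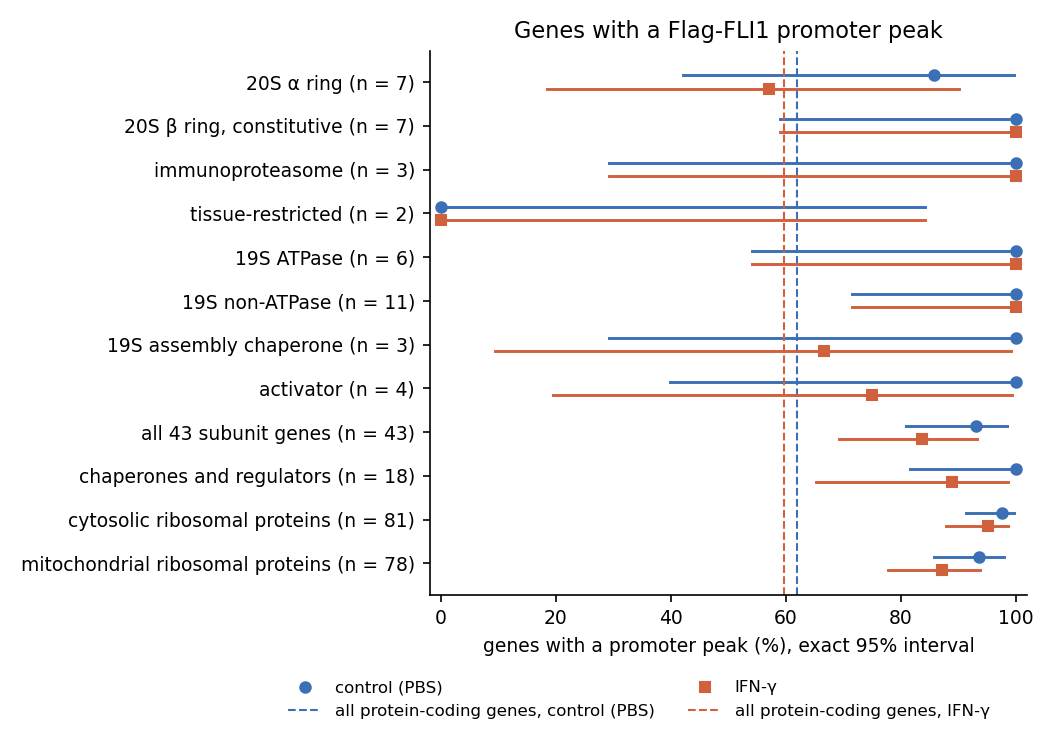
Share of genes with a Flag-FLI1 promoter peak (x axis, percent) by subunit group and for 3 other gene lists, with exact 95% intervals as lines. Circles are the control library, squares the IFN-γ library, and dashed lines the shares over all protein-coding genes, 61.9% and 59.7%. The constitutive β ring, the immunoproteasome and the 19S ATPase and non-ATPase groups stand at 100% in both libraries, and the tissue-restricted genes at 0.

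The α ring genes, which form the outer gates of the core, had the fewest peaks among the constitutive groups. Of the 7 genes, 6 had a control peak (42.1% to 99.6%) and 4 an IFN-γ peak (18.4% to 90.1%). These intervals hold the shares over all protein-coding genes, 61.9% and 59.7%. Fold enrichment, the authors' ratio of the summit to its local background, ranged from 5.69 to 18.0 in control cells and from 6.96 to 11.6 after IFN-γ. *PSMA7* (α4) had the highest control value, 18.0 with a pileup of 43, and a value of 9.09 with a pileup of 32 after IFN-γ. The nearest peaks to *PSMA4* (α3) lay 20.3 kb and 21.1 kb from its closest TSS, at *CHRNA5*. *PSMA8*, a testis paralogue of *PSMA7*, had its nearest peaks 42.8 kb and 42.7 kb away, and these lay at *SS18*.

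The 7 constitutive β ring genes all had a peak in each library. Their interval, 59.0% to 100%, holds the 61.9% and 59.7% of all protein-coding genes. Folds were 4.53 to 21.8 (control) and 4.44 to 31.3 (IFN-γ). *PSMB1* (β6) was the highest in both, at 21.8 with 50 fragments and 31.3 with 86 fragments. *PSMB2* (β4) had 5.33 with 10 fragments and 4.44 with 16 fragments. *PSMB11*, the β5 form of the thymic cortex, had its nearest control peak 4.80 kb away and its nearest IFN-γ peak, that of *PSMB5*, 6.88 kb away. *PSMB5* and *PSMB11* are neighbours on chromosome 14. The strongest control peak in the window of *PSMB3* (β3), with 40 fragments, had its summit 35 bp from a TSS of *PCGF2*. The peak 155 bp upstream of *PSMB3* itself had a fold of 11.2 with 22 fragments, and its IFN-γ counterpart 11.0 with 45 fragments.

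All 6 ATPase genes and all 11 non-ATPase genes of the 19S cap had a peak in each library. The interval for the 6 ATPase genes, 54.1% to 100%, holds the 61.9% and 59.7% of all protein-coding genes. That for the 11 non-ATPase genes, 71.5% to 100%, lies above both. The ATPase folds spanned a narrow range, 7.04 to 16.4 in control cells and 8.56 to 18.4 after IFN-γ. The non-ATPase folds spanned 4.27 to 38.8 and 3.47 to 46.3, with medians of 23.7 and 15.5. This group held both the highest and the lowest members. Among control peaks *PSMD2* (a scaffold of the base) had a fold of 38.8 with 96 fragments, *PSMD4* (a ubiquitin receptor) 38.8 with 110 fragments, and *PSMD6* (a lid subunit) 36.5 with 74 fragments. *PSMD12*, another lid subunit, had 34.6 with 103 control fragments and 46.3 with 209 fragments after IFN-γ, where it lay in the top 0.416% of all peaks. *PSMD1*, the other large scaffold of the base, was the lowest member in both libraries, at 4.27 with 9 fragments and 3.47 with 10 fragments. *PSMD14*, the deubiquitinase of the lid, lay between these, at 14.5 with 29 fragments and 7.40 with 30 fragments.

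The 3 base assembly chaperones differed widely in their control folds. *PSMD9* had a fold of 30.3, *PSMD5* 6.31 and *PSMD10* 5.35, and after IFN-γ *PSMD9* had 23.4, *PSMD5* 4.40 and *PSMD10* no peak. Among the activators, *PSME3* (PA28γ, a nuclear cap not induced by IFN-γ) and *PSME4* (PA200) had control folds of 31.6 and 27.7. *PSME1* (PA28α) had 4.70 with 10 fragments, the third lowest of the control values, and *PSME2* (PA28β) 9.17 with 18 fragments. After IFN-γ, *PSME2* had 8.61 with 32 fragments. For *PSME1* the nearest IFN-γ peak, at *EMC9*, lay 3.34 kb from its closest TSS, just outside the 3 kb window, with 19 fragments. That peak lies inside the window of *PSME2*, whose gene is adjacent.

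**Figure D2:**
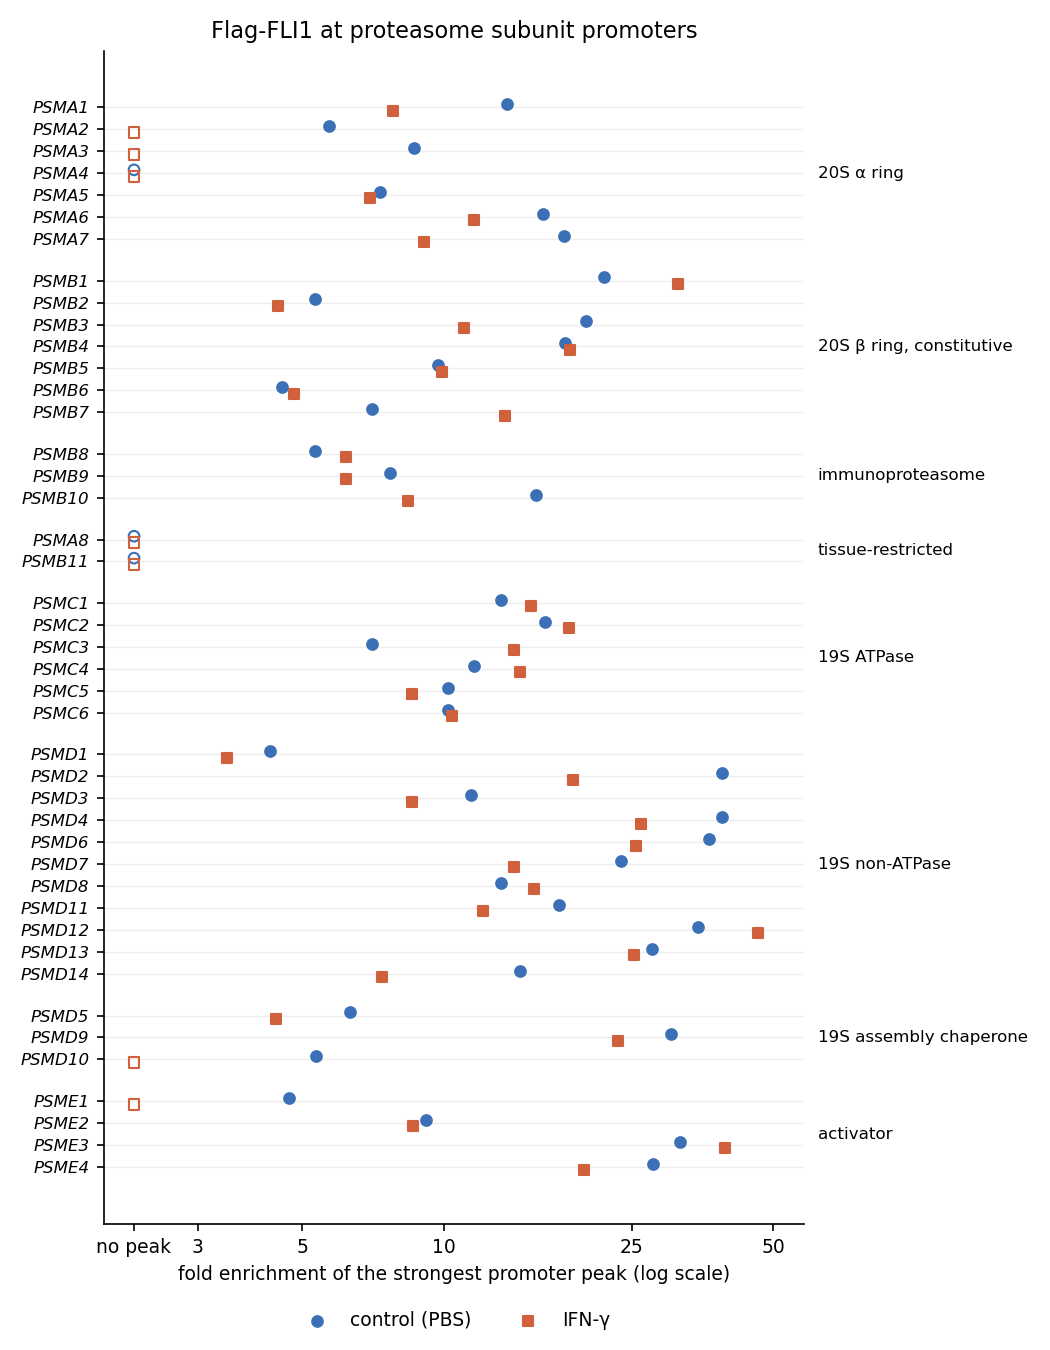
Fold enrichment of the strongest promoter peak (x axis, log scale) of each of the 43 genes, by subunit group. Filled circles are the control library and filled squares the IFN-γ library, and open symbols at the left mark genes without a peak. *PSMD2* and *PSMD4* stand highest in the control library at 38.8, and *PSMD12* in the IFN-γ library at 46.3.

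The 3 immunoproteasome genes each had a promoter peak in both the control and the IFN-γ library. Over all protein-coding genes the shares were 61.9% and 59.7%, inside the interval for 3 of 3 genes (29.2% to 100%). Among the 31 genes of the constitutive core particle and cap, 30 and 28 had a promoter peak. Control folds were 5.32 at *PSMB8*, 7.68 at *PSMB9* and 15.7 at *PSMB10*, set beside 9.73 at *PSMB5*, 4.53 at *PSMB6* and 7.04 at *PSMB7*. IFN-γ folds were 6.21 at *PSMB8*, 6.21 at *PSMB9* and 8.39 at *PSMB10*, beside 9.88, 4.80 and 13.5. Each value is that of the strongest peak in the window, which is not always at the start of the gene. At the starts of *PSMB9*, *PSMB10* and *PSMB7* the IFN-γ folds were 4.18, 6.39 and 8.93. The start of *PSMB6* had no IFN-γ peak. The immunoproteasome values lay within the range of the constitutive core in each library, 4.27 to 38.8 and 3.47 to 46.3. In the IFN-γ library all 3 were under the constitutive core's median of 12.8. In the control library *PSMB8* and *PSMB9* were under its median of 13.4 and *PSMB10* was above it through its intron 4 peak, while the peak at its start, at 4.44, was under it.

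*PSMB8* and *PSMB9* lie on chromosome 6 in the MHC class II region, beside the peptide transporter genes *TAP1* and *TAP2*. In GENCODE a long *PSMB9* transcript starts 89 bp from the *PSMB8* TSS, so the *PSMB8* peaks fall in the window of both genes. The control peak there, at 32843878 to 32844158, had 15 fragments, with its summit 41 bp upstream of the MANE TSS of *PSMB8* and 2 bp from a TSS of the antisense RNA *PSMB8-AS1*. The IFN-γ peak, at 32843981 to 32844667, had 23 fragments and its summit lay 394 bp upstream. A second IFN-γ peak with 13 fragments lay 1574 bp upstream and had no control counterpart. The sequence around the control summit, on the strand of *PSMB8*, held 3 GGAA cores (capitals, TTCC where the core is on the other strand) and no octamer.
PSMB8, chr6:32844058-32844118, minus strand: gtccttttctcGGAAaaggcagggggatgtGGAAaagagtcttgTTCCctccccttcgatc

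The MANE start of *PSMB9* lies 376 bp from the start of *TAP1*, which is transcribed in the opposite direction, and the peaks between them belong to both windows. In the control library the peak, at 32853228 to 32854296 with 16 fragments and a fold of 7.68, had its summit 18 bp from the *TAP1* TSS and 394 bp from the MANE TSS of *PSMB9*. In the IFN-γ library the peak, at 32853979 to 32854362 with 18 fragments and a fold of 4.18, had its summit 48 bp upstream of *PSMB9*, 346 bp from the control summit. With pileups this low the position of a summit is uncertain. The fold of 6.21 given for *PSMB9* after IFN-γ is that of the *PSMB8* peak, the stronger in its window. *TAP2* had a control fold of 7.18 with 19 fragments and no IFN-γ peak.

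*PSMB10* lies on chromosome 16 at 67934506 to 67936864, on the minus strand. Its strongest peak, with 41 control and 46 IFN-γ fragments, was not at the gene's start but in intron 4, 1001 bp and 1016 bp inside the gene, close to the start of a shorter *PSMB10* transcript. The peak at the gene's own start had 12 control and 28 IFN-γ fragments, and folds of 4.44 and 6.39. Its IFN-γ summit lay 28 bp inside exon 1. In the sequence around the start, on the strand of the gene, the octamer (capitals) is preceded by a pair of GAAA units.
PSMB10, chr16:67936827-67936887, minus strand: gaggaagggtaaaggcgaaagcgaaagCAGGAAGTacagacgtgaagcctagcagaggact

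Of the constitutive counterparts, *PSMB5* had 1 peak in each library, with 19 and 28 fragments. The summits lay 246 bp and 237 bp upstream of the MANE TSS, and 84 bp and 93 bp downstream of another *PSMB5* start. *PSMB7* had a peak 50 bp upstream with 32 control fragments and 77 bp upstream with 39 IFN-γ fragments. A further *PSMB7* peak in intron 4 was called in the IFN-γ library only. It had 84 fragments and a fold of 13.5, and its summit lay 3330 bp from the MANE TSS, outside the window although the peak reached into it. *PSMB6* had a control peak of 10 fragments in exon 1, 42 bp from its TSS. Its only IFN-γ peak, with 13 fragments, lay beyond the end of the gene, 2647 bp from the MANE TSS and 1127 bp from a shorter transcript's start. The *PSMB6* start itself had no IFN-γ peak, and with a 1 kb window *PSMB6* left the IFN-γ count, which was then 35.

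**Figure D3:**
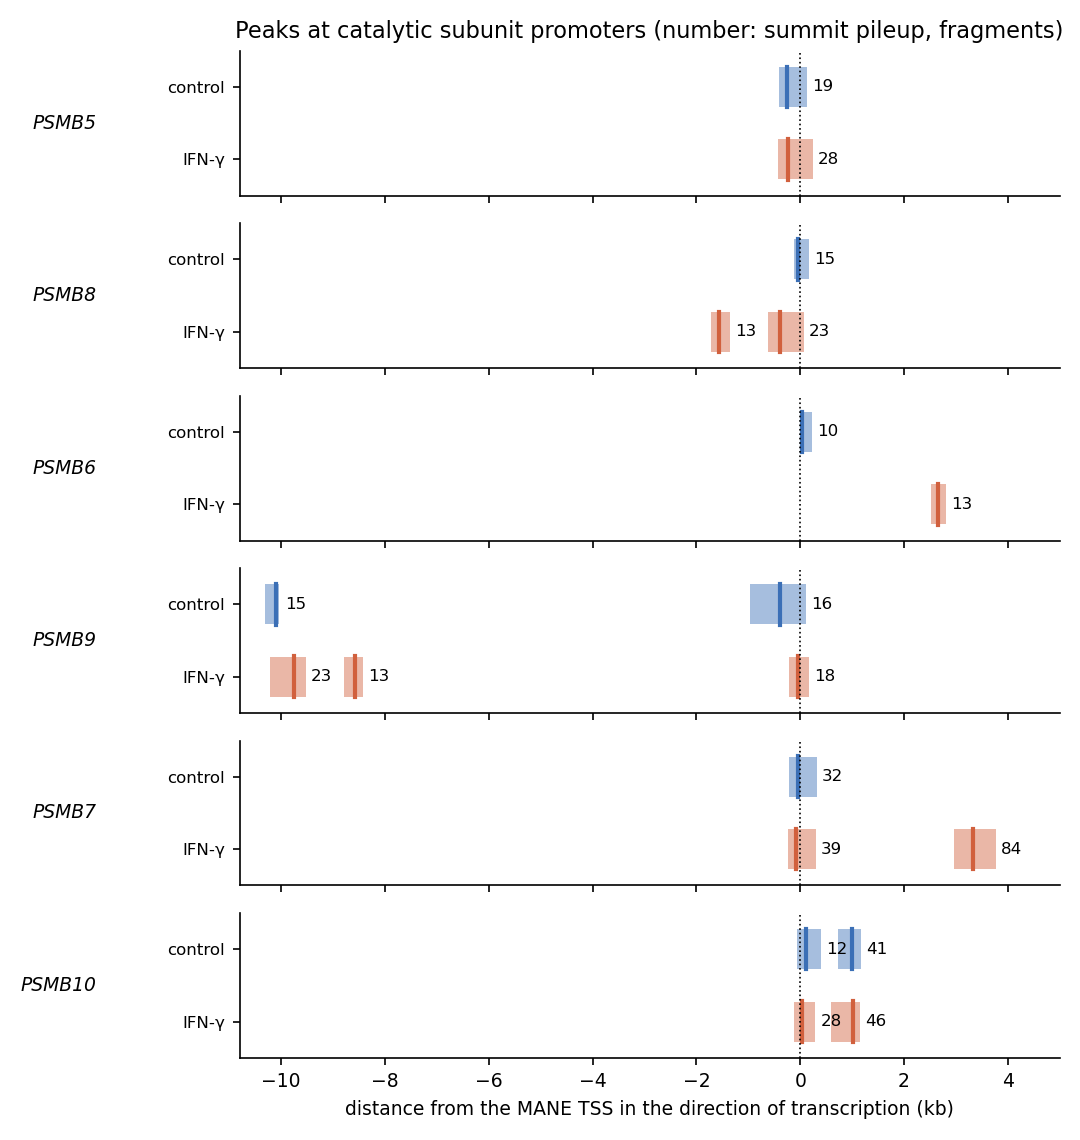
Deposited peaks (bars) and their summits (thick lines) in the promoter windows of the catalytic genes, with each constitutive gene above its immunoproteasome counterpart. The x axis is the distance from the MANE TSS in kb, in the direction of transcription, and numbers are summit pileups in fragments. The strongest *PSMB10* peak (41 and 46 fragments) lies about 1 kb inside the gene, and the peaks about 10 kb upstream in the *PSMB9* row are those of the *PSMB8* start.

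An overlapping IFN-γ peak was found for the strongest control peak of 35 members. The pileup ratio of IFN-γ to control, divided by the relative depth, had a median of 0.935 over these 35 pairs, with a range of 0.511 to 1.78. Over the 11604 pairs at promoters of protein-coding genes it was 0.859, and values are read against that median. Those 11604 pairs also include peaks that are not the strongest of a gene, so the 2 sets are not alike. With folds in place of pileups the members had 0.813 and all pairs 0.822, and with summits within 100 bp 0.858 and 0.878, so the order of the medians turned. The scaled pileup ratio was above 0.859 for 19 members and below it for 16. The interval lay wholly above the median for 5 members (14.3%), against 10.5% of all promoter pairs, and wholly below it for 2 (5.71%), against 5.19%. These shares of members rest on few genes, and the shares of all pairs also count peaks that are not the strongest of a gene.

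The highest ratio was that of *PSMC3*, an ATPase, with 32 control and 83 IFN-γ fragments, a ratio of 1.78 (1.17 to 2.77). *PSMC4* had 28 and 65 fragments, a ratio of 1.59 (1.01 to 2.58), and *PSMC1* had 30 and 63, a ratio of 1.44 (0.920 to 2.31). The remaining 2 were *PSMD12*, with 103 and 209 fragments and a ratio of 1.39 (1.10 to 1.78), and *PSMB4* (β7), with 43 and 83 and a ratio of 1.33 (0.907 to 1.96). All 6 ATPase genes lay above the median of all pairs, from 1.01 to 1.78, although the strongest *PSMC2* peak is centred 45 bp from a TSS of *DNAJC2*. The peak at the start of *PSMC2* itself, with 39 and 65 fragments, had a ratio of 1.14. The 11 non-ATPase genes had a median of 0.763, and 3 of them lay above 0.859. The difference between these groups was not tested.

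The lowest ratios were those of *PSMA7*, with 43 and 32 fragments and a ratio of 0.511 (0.313 to 0.827), and *PSMD6*, with 74 and 64 fragments and a ratio of 0.594 (0.418 to 0.841). *PSMD14* followed with 0.710 (0.412 to 1.23), an interval that holds the median.

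The ratios of the immunoproteasome genes did not stand apart. *PSMB8* had 15 and 23 fragments, a ratio of 1.05 (0.526 to 2.17). *PSMB9* had 16 and 18, a ratio of 0.773 (0.372 to 1.62), and *PSMB10* had 41 and 46, a ratio of 0.771 (0.495 to 1.20). The control and IFN-γ summits lay 353 bp apart at *PSMB8* and 346 bp apart at *PSMB9*. The ratios of *PSMB8* and *PSMB9* therefore do not compare pileups at the same position. The start peak of *PSMB10*, with 12 and 28 fragments, had 1.60 (0.789 to 3.46). Their counterparts *PSMB5* and *PSMB7* had 1.01 (0.545 to 1.92) and 0.837 (0.511 to 1.38), and *PSMB6* had no overlapping pair. Each of these intervals holds 0.859. Those of *PSMB8* and of the *PSMB10* start include both 1 and 2, so a difference of that size was not detectable at this depth. *PSME2* had 18 and 32 fragments, a ratio of 1.22 (0.665 to 2.31). *PSME3* has 2 starts about 9 kb apart. Summits at both lie close to *BECN1* transcript starts. The peak at the downstream one had 73 and 101 fragments, a ratio of 0.950 (0.696 to 1.30), and the peak at the upstream one had 46 and 115, a ratio of 1.72 (1.21 to 2.47).

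**Figure D4:**
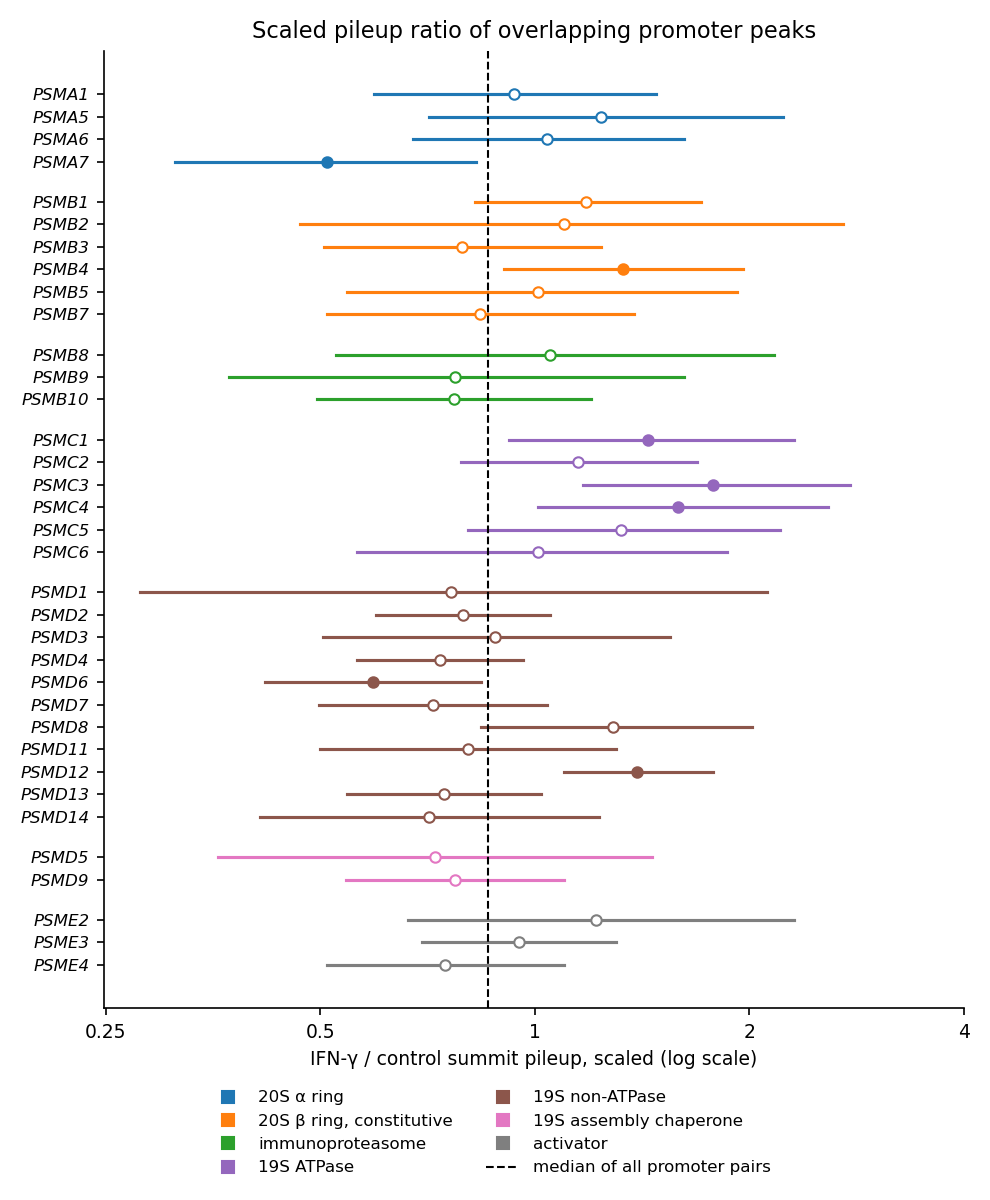
Scaled ratio of IFN-γ to control summit pileup (x axis, log scale) for the strongest control peak of 35 genes, with exact 95% intervals. Filled points have an interval that leaves out the median of all promoter pairs (dashed line, 0.859). *PSMB8*, *PSMB9* and *PSMB10* are open, and *PSMC3* is the highest at 1.78.

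Summits lay close to start sites. The median distance from the summit of the strongest promoter peak to the closest TSS of its gene was 42.0 bp (control) and 44.5 bp (IFN-γ). Over all protein-coding genes with a peak it was 114 bp and 147 bp. The summit was within 100 bp for 35 of the 40 members with a control peak and 24 of the 36 with an IFN-γ peak, against 47.4% and 42.6% of all genes with a peak. Another gene's TSS was closer to the summit for 10 members in control cells and 8 after IFN-γ. Starts of non-coding genes were included, and the share over all genes with a peak was not calculated. The closest in the control library were *PSMB8* (2 bp from *PSMB8-AS1*), *PSMC5* (14 bp from *FTSJ3*) and *PSME3* (17 bp from *BECN1*). Next came *PSMB9* (18 bp from *TAP1*), then *PSMB3* (35 bp from *PCGF2*), level with *PSMD14* (35 bp from *PSMD14-DT*). In the IFN-γ library the closest were *PSME4* (2 bp from *ACYP2*), *PSMC5* (4 bp from *FTSJ3*) and *PSME2* (5 bp from ENSG00000259529). *PSMC2* (9 bp from *DNAJC2*) and *PSME3* (12 bp from *BECN1*) followed. A protein-coding gene started in the opposite direction within 1 kb of 11 members, against 12.6% of all protein-coding genes. At *PSMB1*, whose neighbour *TBP* starts 995 bp away, separate peaks lay at each start, with 50 and 86 fragments at *PSMB1* and 30 and 56 at *TBP*.

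**Figure D5:**
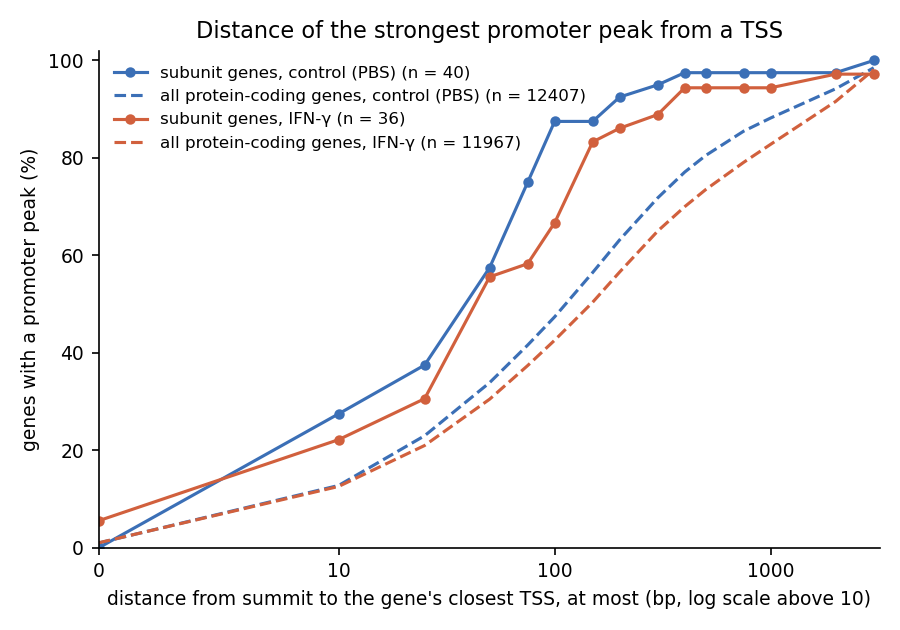
Share of genes (y axis, percent of genes with a promoter peak) whose strongest promoter peak has its summit within a given distance of the gene's closest TSS (x axis, bp, log scale above 10). Solid lines are subunit genes and dashed lines all protein-coding genes, in the control (blue) and IFN-γ (orange) libraries. At 100 bp the solid lines stand at 87.5% and 66.7%, and the dashed lines at 47.4% and 42.6%.

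Ranked by −log10 p, the strongest promoter peak of the members with a peak stood at a median of the top 17.0% of the control list and 16.8% of the IFN-γ list, where all genes with a peak had 24.7% and 28.8%. With genes lacking a peak placed last, all 43 members had a median rank percentile of 27.6 and 25.9 among all protein-coding genes. The cytosolic ribosomal protein genes, another large complex of housekeeping subunits, had 14.3 and 13.4, and the mitochondrial ribosomal protein genes 28.6 and 31.4. Of the 81 cytosolic genes 79 and 77 had a promoter peak, and of the 78 mitochondrial genes 73 and 68. The shares over all protein-coding genes were 61.9% and 59.7%. The ranks of the subunit genes lay between those of the ribosomal lists, and their shares with a peak, 93.0% and 83.7%, were the lowest of the 3 lists with overlapping intervals.

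The ETS octamer was within 100 bp of 11 of the 40 control summits of members (27.5%, 14.6% to 43.9%) and 11 of the 35 distinct IFN-γ summits (31.4%, 16.9% to 49.3%). At the strongest promoter summits of all protein-coding genes the shares were 15.8% and 18.5%, which lie inside those intervals. Among equally wide flanking windows, 1 kb to each side of the members' summits, 2 of 80 and 3 of 70 held an octamer. In both libraries the windows beside *PSMB1* and *PSMB10* took in octamers inside other called peaks, at *TBP* and at the *PSMB10* start. The flanking windows are therefore not a background free of peaks. CCGGAAGT accounted for 10 of the 11 control summits, and CAGGAAGT for 1. The GGAA core alone was found at all 40 summits of control cells and 34 of the 35 after IFN-γ, against 94.5% and 97.3% of all strongest summits, so it does not set the members apart. The hexamer CCGGAA, contained in CCGGAAGT and added after the data were examined, was at 21 control summits (52.5%, 36.1% to 68.5%) against 38.0%, which lies inside that interval. By gene, 3 of 7 constitutive β ring, 4 of 11 non-ATPase, 2 of 6 ATPase and 2 of 4 activator genes had the octamer. The counts were 1 of 6 for α ring, 1 of 3 for immunoproteasome and 0 of 3 for assembly chaperone genes. Only genes with a peak are counted, and 23.0% of all genes with a peak had the octamer. Members with it had a median control fold of 16.2 and members without it 10.2, and over all genes with a peak the medians were 17.0 and 9.30. In the IFN-γ library the medians were 15.5 and 10.7, and over all genes 14.6 and 7.89.

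The members with the highest control folds had no octamer but GGAA cores close to the summit. At *PSMD2* and *PSMD6* the core shown is part of the hexamer CCGGAA, and at *PSMD4* it is not. Cores are in capitals on the strand of the gene (TTCC where the core is on the other strand).
PSMD2, chr3:184299111-184299171, plus strand: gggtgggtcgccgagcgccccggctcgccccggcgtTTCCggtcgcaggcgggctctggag
PSMD4, chr1:151254636-151254696, plus strand: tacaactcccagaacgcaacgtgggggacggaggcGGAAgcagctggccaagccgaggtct
PSMD6, chr3:64023486-64023546, minus strand: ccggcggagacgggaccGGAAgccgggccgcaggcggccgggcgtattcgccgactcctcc

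The core of the interferon-stimulated response element, bound by interferon regulatory factors, was searched as GAAA, any 2 bases and GAAA, on both strands. It lay within 100 bp of a promoter summit of 5 of the 40 members with a peak, which were *PSMB8*, *PSMB9*, *PSMB10*, *PSME2* and *PSMB4* (12.5%), against 5.80% of all protein-coding genes with a peak. All 3 immunoproteasome genes were among them, and *PSMB4* was the only one of the 7 constitutive β ring genes. The sites are shown with the core in capitals, on the strand that carries it.
PSMB8, chr6:32844032-32844061, plus strand: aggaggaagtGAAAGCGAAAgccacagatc
PSMB9, chr6:32853813-32853842, plus strand: ccatttagggGAAAGCGAAAtcgaaagcgg
PSMB10, chr16:67936852-67936881, minus strand: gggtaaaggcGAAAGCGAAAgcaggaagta
PSME2, chr14:24147215-24147244, plus strand: ggtccagctaGAAAAAGAAAggttttgagc
PSMB4, chr1:151399495-151399524, plus strand: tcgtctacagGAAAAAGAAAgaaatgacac
The cores shown for the immunoproteasome genes share the same 10 bases, and *PSMB9* held a further core that overlaps this one. The *PSMB9* cores shown lay near the control summit 18 bp from the *TAP1* TSS and 394 bp from the MANE TSS of *PSMB9*. The IFN-γ summit 48 bp upstream of *PSMB9* had no core within 100 bp. At *PSMB10* the core ended 1 base before the octamer CAGGAAGT. The cores at *PSMB8*, *PSMB9* and *PSME2* were near control summits, that at *PSMB10* near its IFN-γ summit, and that at *PSMB4* near both. Counted by the strongest summit alone, 4 of 40 control summits (10.0%, 2.79% to 23.7%) held it and 1 of 35 after IFN-γ did, against 1.91% and 3.56% of all strongest summits. The GAS element, a site of STAT dimers, was searched as TTC, any 3 bases and GAA. It was near a summit of 6 members (15.0%), among them *PSMB5*, *PSMB8* and *PSMB9*, against 8.25% of all genes with a peak. The match counted for *PSMB9* is that of the *PSMB8* peak, and no *PSMB9* peak at its MANE start held one. For both elements the shares by gene carry no interval, and their differences from those of all genes were not tested. A match describes the letters near a summit and shows no binding by those factors.

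The 18 related genes encode assembly factors, cap-associated proteins and regulators of the proteasome. Of these, 18 had a promoter peak in control cells (81.5% to 100%), against 61.9% of all protein-coding genes. After IFN-γ 16 had one (88.9%, 65.3% to 98.6%), against 59.7%. The missing genes were *PSMG1*, an assembly chaperone of the α ring, and *USP14*, a deubiquitinase of the cap, with 16 and 9 control fragments. *POMP*, the maturation factor of the core, had a fold of 68.8 with 183 control fragments and 83.9 with 323 IFN-γ fragments, above every subunit gene. *ADRM1*, a ubiquitin receptor, had 42.7 and 16.2. *NFE2L1*, the factor that induces subunit genes when proteasome activity is low, had 5.08 and 3.43. *POMP*, *ADRM1* and *NFE2L1* were named after their values were seen.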

How the data were processed

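Peaks from 2 Flag-FLI1 ChIP libraries were analysed. According to the methods and the submitters' processing notes, the authors used Cutadapt 1.18 for trimming, Bowtie2 2.3.4.1 for alignment (GRCh38), Picard against duplicates and MACS2 2.1.2 for peaks, per library, at a p-value cutoff of 0.01. Whether the input served as control is not given in the sources used here. The deposited lists hold positions, summits, the authors' fold enrichment (a ratio) and the deposited −log10 p-value and −log10 q-value. All deposited peaks had −log10 p of at least 3.46 and −log10 q of at least 1.30, stricter than the stated cutoff, so the cutoff that made the lists is uncertain.

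The whole-number pileup and background were solved from fold, (pileup + 1)/(background + 1), and the Poisson −log10 p, and were whole for 100% of peaks with a largest relative error of 6.21e-06. Start sites came from GENCODE 44. A gene's strongest peak had the highest −log10 p, and paired peaks overlapped by at least 1 bp. CpG-rich promoters had over 50% GC and an observed over expected CpG above 0.6 within 250 bp of the MANE TSS. Motifs were searched on both strands with overlaps kept.

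Genes named were the catalytic and PA28 genes, *PSMA8* and *PSMB11*, the 3 highest and lowest folds and ratios, members lacking a peak, ratios whose interval left out the median, up to 5 genes with a closer foreign TSS, *TAP1*, *TAP2* and related genes lacking a peak. Others were named after their values were seen. Members and lists were chosen with earlier results of these data known. No test was run, since each condition had 1 library. Pileup recovery, promoter overlap, the nearest TSS, overlapping pairs and the octamer search were tested on simulated data, and the other steps were not. Computations used samtools 1.23.1 and Python 3.11.15 (matplotlib 3.10.9, pysam 0.24.0, pandas 2.3.3, scipy 1.17.1, numpy 2.4.6).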

Additional observations from a re-analysis of the deposited data

How the results depend on the processing

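No paired analysis was possible because 1 library stood for each condition. Pileups were low and the lists hold nothing under the calling cutoff, so a missing peak and a ratio of 1 pair are weak measurements. Counts of members with a peak ran from 32 to 41 in the control library and 30 to 38 in the IFN-γ library over q-value cutoffs, lists of equal length, other windows, 1 TSS per gene, summits inside the window and assignment to the nearest TSS. The lowest value came from nearest-TSS assignment in both libraries. That assignment left 1 immunoproteasome gene with a control peak, *PSMB10*, since the *PSMB8* and *PSMB9* summits lay nearer to *PSMB8-AS1* and *TAP1*. With folds in place of pileups the median ratio of members was 0.813, under the 0.822 of all promoter pairs, so its place above the median was lost. Scaling by the median of all promoter pairs only re-expresses the reported ratio, as 1.09. With summits within 100 bp it was 0.858, under the 0.878 of all pairs, and with the peak closest to the MANE TSS, added after seeing the data, it was 1.01. The share of summits with a motif was 100% and 97.1% for the GGAA core and 52.5% and 54.3% for CCGGAA, which was added after seeing the data. With 1 TSS per gene the median summit distance was 65.5 bp and 71.5 bp. With the peak closest to the MANE TSS the folds of *PSMB10* (control), *PSMB7* (IFN-γ) and *PSME3* (IFN-γ) were 4.44, 8.93 and 22.5. The other alternatives left these results within 1.5 times their reported value, or within the interval for shares.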
